A study of Mus musculus with 5 samples.

Results

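The RNA-binding motif (RBM) genes and the heterogeneous nuclear ribonucleoprotein (hnRNP) genes were described in RNA pulled down with podocyte ribosomes. Members were the protein-coding mouse genes whose GENCODE vM21 symbol is Rbm followed by a digit, or starts with Rbmx or Hnrnp. This gave 58 genes with values, 38 RBM and 20 hnRNP, of 21019 genes with values in the table, 15046 of them protein-coding. Rbm42, Rbm44, Rbm8a2, Rbmxl2 and Rbm31y carry such a symbol and were not analysed here. The 3 libraries labelled *Pfn1*-KO (N2, N3 and N4) came from *Pfn1* fl/fl mice with Pod-Cre and Rosa-Dtr fl, and the 2 control libraries (N1 and N3) from *Pfn1* +/+ mice with Pod-Cre and Rosa-Dtr fl. Both groups thus carried the Cre, which a podocyte promoter drives, and the Rosa-Dtr allele, both were crossed to mice with a GFP-tagged ribosomal protein (translating ribosome affinity purification, TRAP), and both were on a C57BL/6 background and 3 weeks old. The loxP sites flank exon 1 of *Pfn1*, which encodes the actin-binding protein profilin1. Each library was pooled from 3 mice. The comparison asks which podocyte transcripts change when profilin1 is lost. Values are given in the order N2, N3, N4 for *Pfn1*-KO and N1, N3 for control.

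hnRNP proteins coat newly made RNA in the nucleus. They mark where exons are joined or skipped, and several also move with the mRNA to the cytoplasm. The RBM genes share little beyond an RNA recognition motif in their products and the naming scheme: some encode parts of the spliceosome or of the exon junction complex that is left on spliced mRNA, others regulate alternative splicing, RNA decay in the nucleus or assembly of ribosomes. Most are expressed in many cell types, with exceptions such as the muscle splicing factors Rbm20 and Rbm24.

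The libraries held 18186900 to 24871893 reads, and they differed in more than genotype. These totals include reads of the rRNA gene given below, so the depth left for other genes was not alike between libraries. Above 0 were 20980, 20435 and 20956 genes in *Pfn1*-KO libraries, against 6901 and 7528 in control libraries. Counts of genes that rose or were listed at 0 in controls below are limited by this. The level of *Pfn1* was 41.9, 17.2 and 27.8 FPKM (fragments per kilobase of exon, scaled to library size) in *Pfn1*-KO libraries, against 13.6 and 11.8 FPKM in control libraries (log2 fold change 1.05, SE 0.56, adjusted p = 0.123, limma with Benjamini-Hochberg). The targeted gene was thus not lower under the label *Pfn1*-KO, and every direction below rests on that label. Median-ratio scaling turned its log2 fold change to -0.70 and quantile normalization to -0.36, neither called. Array weights gave 1.52 (adjusted p = 0.0158) and leaving out *Pfn1*-KO N3 gave 1.36 (adjusted p = 0.0454), both called higher. The rRNA gene CT010467.1 was at 346, 133787 and 194 FPKM in *Pfn1*-KO libraries and at 291221 and 311036 FPKM in control libraries. *Pfn1*-KO N3 thus held far more of it than N2 and N4, and less than either control. Summed podocyte markers were at 233 to 680 FPKM in *Pfn1*-KO libraries and 152 to 155 FPKM in control libraries, with 12 of 16 called higher and Foxc2 and Tcf21 at 0 in both controls. Proximal tubule markers summed to 3882 to 8916 FPKM in *Pfn1*-KO libraries and 278 to 607 FPKM in control libraries, with 15 of 15 called higher and Gatm at 0 in both controls. Thick limb and distal tubule markers summed to 382 to 647 FPKM in *Pfn1*-KO libraries and 7.17 to 7.85 FPKM in control libraries, with 7 of 7 called higher and Cldn16, Kcnj1, Pvalb and Umod at 0 in both controls. Endothelial markers summed to 62.8 to 86.6 FPKM in *Pfn1*-KO libraries and 9.85 to 9.97 FPKM in control libraries, with 6 of 8 called higher and Cdh5, Kdr and Tek at 0 in both controls. Mesangial markers summed to 56.1 to 107 FPKM in *Pfn1*-KO libraries and 2.38 to 42.7 FPKM in control libraries, with 4 of 6 tested called higher and Pdgfrb and Tagln at 0 in both controls. Macrophage markers summed to 12.5 to 106 FPKM in *Pfn1*-KO libraries and 9.29 to 521 FPKM in control libraries, with 2 of 8 called higher and C1qa and C1qc at 0 in both controls. The part of rRNA and of these cell types in the results below was not tested, and in bulk RNA fewer cells of a type and less RNA per cell cannot be told apart.

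The coding sequences of members differ in how purine-rich they are, and the richest 50 bases of 9 of them are shown first. Each line is a stretch of the coding strand of GRCm38, read 5′ to 3′ from coding exons of the GENCODE vM21 transcript with the longest complete coding sequence. Capitals mark purines (A or G) and lower case marks pyrimidines. The first 4 genes were lower in *Pfn1*-KO libraries. Rbm10 and Rbm19 have stretches as rich and passed the test in neither direction, and Hnrnpul2, Hnrnpul1 and Rbm47 are shown as a pair of related genes and as the RBM gene with the largest rise.
Rbm25: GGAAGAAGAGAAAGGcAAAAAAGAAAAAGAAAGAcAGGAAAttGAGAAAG
Rbmx2: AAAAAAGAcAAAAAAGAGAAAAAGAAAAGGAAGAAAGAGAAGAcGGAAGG
Rbm39: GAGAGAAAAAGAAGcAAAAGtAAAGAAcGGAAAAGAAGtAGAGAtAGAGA
Rbm8a: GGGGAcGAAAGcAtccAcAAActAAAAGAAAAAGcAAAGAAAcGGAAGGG
Rbm10: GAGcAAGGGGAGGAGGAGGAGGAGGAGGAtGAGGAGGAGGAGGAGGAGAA
Rbm19: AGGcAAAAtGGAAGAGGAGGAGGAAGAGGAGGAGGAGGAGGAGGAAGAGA
Hnrnpul2: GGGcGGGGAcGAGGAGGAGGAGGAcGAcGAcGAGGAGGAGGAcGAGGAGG
Hnrnpul1: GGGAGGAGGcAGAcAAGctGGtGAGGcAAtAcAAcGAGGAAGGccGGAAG
Rbm47: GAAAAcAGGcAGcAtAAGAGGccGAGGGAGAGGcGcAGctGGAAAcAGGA

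The stretch of Rbm25 lies in exon 10 at chr12:83663984-83664033 on the plus strand and holds 46 purines, 31 of them A. That of Rbmx2 spans exons 5 and 6 at chrX:48709067-48709073 and chrX:48709576-48709618 on the plus strand and holds 48 purines, 34 of them A. That of Rbm39 lies in exon 4 at chr2:156172939-156172988 on the minus strand and holds 45 purines, 30 of them A. These 3 stretches are runs of A broken by G. That of Rbm8a spans exons 1 and 2 at chr3:96630022-96630028 and chr3:96630302-96630344 on the plus strand and holds 40 purines, 26 of them A. Rbm10 has 48 purines in exon 4 at chrX:20637552-20637601 on the plus strand and Rbm19 has 48 in exon 17 at chr5:120140256-120140305 on the plus strand, but with 18 and 22 A they are repeats of GAG and GGA triplets. A-rich stretches were not limited to genes that fell: that of Rbm34 holds 44 purines, 35 of them A, and that of Rbm17 holds 44, 24 of them A, and both passed the test in neither direction (log2 fold change -0.26, adjusted p = 0.731, and 0.04, adjusted p = 0.964, limma). Genes that rose have such stretches too. Those of Rbm26, Rbm28 and Rbm48 hold 29, 29 and 28 A. These genes were called higher on the deposited scale (log2 fold change 2.17, 2.33 and 1.71). The stretch of Hnrnpul2 is not A-rich and holds GAG and GGA triplets, as those of Rbm10 and Rbm19 do. It has 44 purines, 14 of them A, in exon 1 at chr19:8820494-8820543 on the plus strand. Hnrnpul1, with 39 purines in exon 12 at chr7:25726102-25726151 on the minus strand, and Rbm47, with 39 purines in exons 4 and 5 at chr5:66026130-66026134 and chr5:66025115-66025159 on the minus strand, have pyrimidines throughout.

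All 20 hnRNP genes and 34 of the 38 RBM genes passed the filter on low values (at least 1 FPKM in at least 2 of 5 libraries) and were tested. The 4 RBM genes left out, Rbm38, Rbm11, Rbm24 and Rbm46, had 0.0346 to 0.860 FPKM in *Pfn1*-KO libraries and were listed at 0 in both control libraries. Of the RBM genes 21 rose, 4 fell and 9 passed in neither direction, with a median log2 fold change of 1.80. Of the hnRNP genes 9 rose and 11 passed in neither direction, with a median of 1.503. Over all 14631 genes tested 70.1% were called higher and 2.13% lower, with a median of 1.75, and over protein-coding genes 73.2% and 2.15%. Of the hnRNP genes 9 of 20 (45%) were called higher, below the background. The RBM share, 21 of 34, lay nearer to it, and the RBM median was close to that of all genes tested. Neither share was tested against the background. Of the 21 RBM genes, 7 were listed at 0 in both controls and passed the filter through their *Pfn1*-KO values alone. Leaving such genes out, a choice made after seeing the data, gave 14 of 27 RBM and 9 of 20 hnRNP genes, against 59.4% of the 8628 tested genes left. Every *Pfn1*-KO value lay above every control value for 22 RBM and 14 hnRNP genes tested, against 80.1% of all genes tested. No hnRNP gene was called lower by limma, none had an unadjusted p under 0.05 in that direction, while limma-voom on recovered reads called 2 lower, median-ratio scaling 5, and quantile and nuclear protein-coding scaling 3 each. The upward direction depended on the scaling. The median of all genes was 2.93 with a sum of 1000000 and 1.29 with nuclear protein-coding scaling, with 2.998 and 1.32 for RBM and 2.27 and 0.46 for hnRNP genes. Quantile normalization moved the median of all genes to -0.09, with 6.99% called higher and 12.3% lower, and put the medians at -0.29 for RBM and -0.30 for hnRNP genes, and median-ratio scaling put them at 0.81 and -0.26 with 1.01 for all genes.

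**Figure D1:**
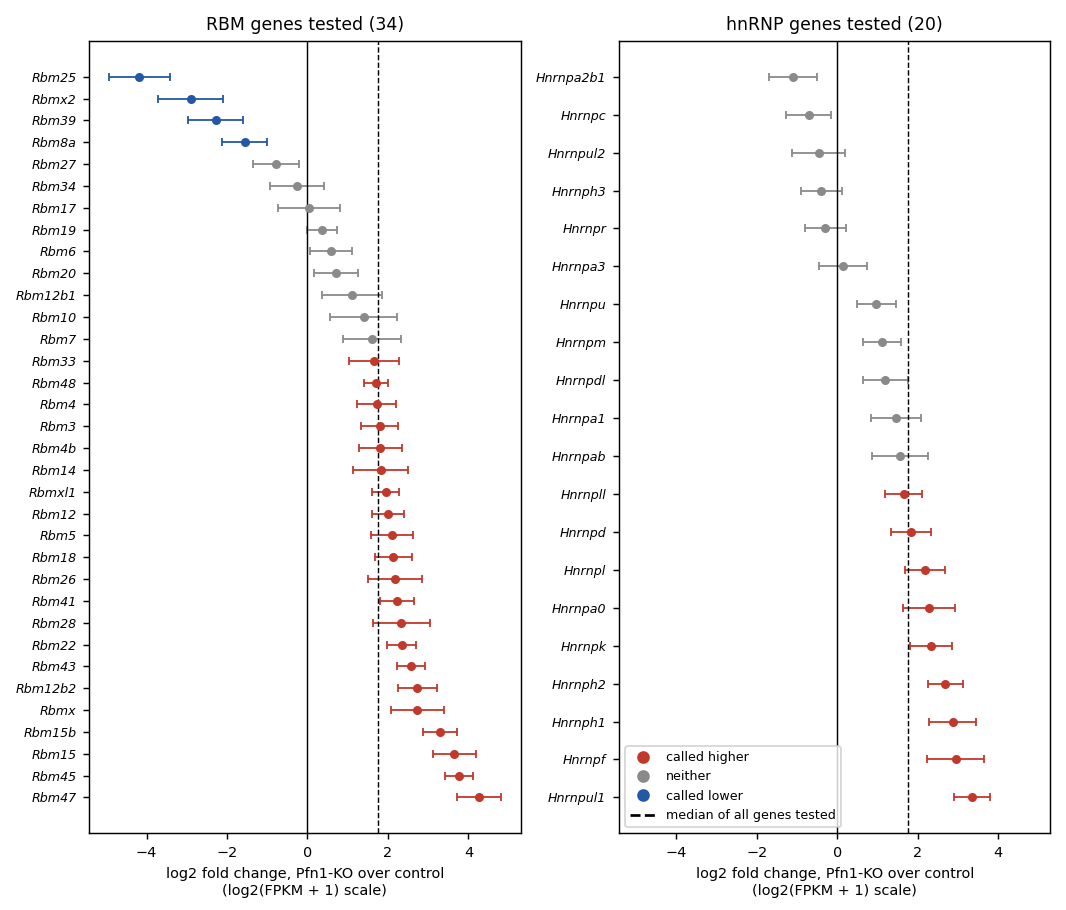
Log2 fold change of each tested RBM (left) and hnRNP (right) gene, *Pfn1*-KO over control on the log2(FPKM + 1) scale, with bars of 1 SE from limma on 3 *Pfn1*-KO and 2 control libraries; red marks genes called higher, blue genes called lower and grey neither. The 4 blue genes are RBM genes, between -4.18 and -1.56, and the dashed line at 1.75 is the median of all genes tested.

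Among RBM genes of alternative splicing (17 with values, 14 tested), 9 rose and 2 fell. Of these 9, 3 (Rbm4, Rbmxl1 and Rbm15) were listed at 0 in both controls and could be called in 1 direction alone. For this and each role group below, in both families, the background is 70.1% higher and 2.13% lower over all genes tested. The gene that fell most was Rbm25, whose human product binds an exonic element and works with U1 snRNP in the choice of splice sites (ENSMUSG00000010608.15, chromosome 12, 83631236 to 83683123, plus strand). Rbm25 was at 18.8, 5.73 and 21.5 FPKM in *Pfn1*-KO libraries, against 175 and 388 FPKM in control libraries (log2 fold change -4.18, SE 0.76, adjusted p = 0.00398, limma). The groups lay far apart: 7563, 2478 and 6785 reads in *Pfn1*-KO libraries stood against 72190 and 153854 reads in control libraries. Ranked by FPKM among 15046 protein-coding genes, Rbm25 stood at 2304, 5167 and 1836 in *Pfn1*-KO libraries and at 54 and 19 in control libraries. It was called lower whichever 1 library was left out and under each scaling, while limma-voom on recovered reads gave -5.23 with an adjusted p of 0.0606, the highest over all alternatives (the lowest was 0.000612, with array weights).

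Rbm39 encodes a splicing factor related to the large subunit of U2AF and is the target that indisulam hands to the proteasome (ENSMUSG00000027620.16, chromosome 2, 156147239 to 156180238, minus strand). It was at 66.9, 28.7 and 73.9 FPKM in *Pfn1*-KO libraries, against 212 and 315 FPKM in control libraries (log2 fold change -2.28, SE 0.68, adjusted p = 0.0225, limma). Rbm39 stood at ranks 399, 929 and 266 among protein-coding genes in *Pfn1*-KO libraries, where it was the most abundant RBM gene, against ranks 42 and 25 in control libraries. The call was lost without control N3 (-1.999), without *Pfn1*-KO N2 (-2.46) and when libraries were rescaled to a sum of 1000000 (-1.55), and over all alternatives the adjusted p ran between 0.00515 and 0.196 in limma.

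Among genes of the spliceosome and the exon junction complex (6 with values, all tested), 3 rose, 2 fell and 1 passed in neither direction. Of the 3 that rose, Rbm41 was listed at 0 in both controls. Rbmx2 encodes a protein of the activated spliceosome, known from the yeast complex for retention of pre-mRNA (ENSMUSG00000031107.6, chromosome X, 48695004 to 48710723, plus strand). It was at 1.78, 1.68 and 1.97 FPKM in *Pfn1*-KO libraries, against 6.81 and 55.4 FPKM in control libraries (log2 fold change -2.90, SE 0.81, adjusted p = 0.0183, limma). The control libraries lay apart from each other, and without control N3 the log2 fold change was -1.48, still called. The call was lost without *Pfn1*-KO N2, N3 or N4 and by limma-voom, and over all alternatives the adjusted p ran between 0.000300 and 0.0995 in limma.

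Rbm8a encodes Y14, which with Magoh locks the exon junction complex onto spliced mRNA (ENSMUSG00000038374.10, chromosome 3, plus strand). It was at 12.6, 12.6 and 9.49 FPKM in *Pfn1*-KO libraries, against 22.7 and 56.4 FPKM in control libraries (log2 fold change -1.56, SE 0.56, adjusted p = 0.0425, limma). Every control value lay above every *Pfn1*-KO value, but the call remained in 1 of 5 fits that left a library out, the one without control N1, and the log2 fold change was -0.93 without control N3. The call was also lost with a sum of 1000000 (-0.88, adjusted p = 0.438) and with a pseudocount of 0.1 (adjusted p = 0.0566). Rbm17, which encodes a factor for recognition of the 3′ splice site, was at 25.2, 10.2 and 23.3 FPKM in *Pfn1*-KO libraries and at 8.21 and 37.1 FPKM in control libraries (log2 fold change 0.04, SE 0.77, adjusted p = 0.964, limma), so the control values lay on both sides of the *Pfn1*-KO values. Its sign turned under median-ratio scaling (-1.70) and quantile normalization (-1.35).

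The count of 4 RBM genes that fell depended on single libraries: it was 4 without control N1, 2 without control N3, 1 without *Pfn1*-KO N2, and 2 without either N3 or N4. Rbm25 was the 1 gene called lower in all 5 fits. In 7 of the tested genes of both families every *Pfn1*-KO value lay below every control value, 5 of them RBM and 2 hnRNP, against 3.49% of all genes tested.

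The RBM gene that rose most was Rbm47, whose product is an RNA-binding partner of the cytidine deaminase Apobec1 and a splicing regulator of epithelial cells. Rbm47 was at 47.4, 28.1 and 37.9 FPKM in *Pfn1*-KO libraries, against 2.02 and 0.300 FPKM in control libraries (log2 fold change 4.26, SE 0.55, adjusted p = 0.00164, limma). The groups did not overlap, and the gene was called higher whichever 1 library was left out, under each scaling and by limma-voom. Rbm47 is expressed in epithelia such as kidney tubule, and the proximal tubule markers were 6309, 8916 and 3882 FPKM in *Pfn1*-KO libraries, against 607 and 278 FPKM in control libraries. Their part in the result was not tested.

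Rbmx, the X-linked gene for hnRNP G, was at 28.5, 7.51 and 19.97 FPKM in *Pfn1*-KO libraries, against 0.926 and 2.55 FPKM in control libraries (log2 fold change 2.73, SE 0.65, adjusted p = 0.0103, limma). The splicing regulator Rbm5 was at 10.7, 3.79 and 10.5 FPKM in *Pfn1*-KO libraries, against 1.38 and 0.687 FPKM in control libraries (log2 fold change 2.11, SE 0.53, adjusted p = 0.0123, limma). Neither overlapped between groups, with *Pfn1*-KO N3 the lowest of its group in both. The call of Rbmx was lost with median-ratio (1.29) and quantile scaling (0.69) and by limma-voom, and that of Rbm5 without *Pfn1*-KO N2 or N4, with median-ratio (0.84), quantile and nuclear protein-coding scaling (1.36) and by limma-voom. Rbm14, which encodes a protein of paraspeckles, was at 8.69, 2.499 and 8.30 FPKM in *Pfn1*-KO libraries, against 2.43 and 0.0784 FPKM in control libraries (log2 fold change 1.82, SE 0.68, adjusted p = 0.0479, limma). Here *Pfn1*-KO N3 barely cleared control N1, and the call was lost without control N3 (0.99), *Pfn1*-KO N2 or N4, with a pseudocount of 0.1 or 5, with no filter, with median-ratio (0.77), quantile and nuclear protein-coding scaling (1.15) and by limma-voom. Rbm4b, a regulator of alternative splicing, was at 5.01, 1.06 and 4.39 FPKM in *Pfn1*-KO libraries, against 0.00423 and 0.338 FPKM in control libraries (log2 fold change 1.81, SE 0.53, adjusted p = 0.0221, limma), on 1 and 77 control reads, and the call was lost without control N1, *Pfn1*-KO N2 or N4, with median-ratio (1.06) and quantile scaling and by limma-voom. Rbm5, Rbm14 and Rbm4b turned negative under quantile normalization, at -0.17, -0.40 and -0.59. Reads of Rbm14 and Rbm4b are uncertain, since 19.4% of the 50-base stretches of Rbm14 also occur in other genes, chiefly Gm21992, as do 27.0% of those of Rbm4b.

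Genes of nuclear RNA decay and export were 4, of which 2 rose. Rbm26 and Rbm27 encode related zinc finger proteins that in human cells join the complex that targets polyadenylated RNA for decay in the nucleus. Rbm26 was at 19.9, 5.78 and 23.0 FPKM in *Pfn1*-KO libraries, against 3.33 and 1.58 FPKM in control libraries (log2 fold change 2.17, SE 0.67, adjusted p = 0.0253, limma). Rbm27, the gene of this group with the highest mean over the 5 libraries, was at 16.1, 7.03 and 18.4 FPKM in *Pfn1*-KO libraries and at 20.9 and 24.7 FPKM in control libraries. Rbm27 values thus lay below both controls where Rbm26 values lay above both. The log2 fold change of Rbm27, named after its values were seen, was -0.78 (SE 0.56, adjusted p = 0.241, limma). It was called lower with median-ratio (-2.52), quantile (-2.20) and nuclear protein-coding scaling (-1.80) and by limma-voom (-1.82). The call of Rbm26 was lost without control N3, *Pfn1*-KO N2 or N4, and with median-ratio (0.66), quantile (0.15) and nuclear protein-coding scaling (1.29) and limma-voom (1.57).

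Of the 3 genes of ribosome assembly, whose products sit in the nucleolus, 1 rose. The gene that rose was Rbm28, named after its values were seen, at 11.3, 6.50 and 13.1 FPKM in *Pfn1*-KO libraries, against 0 and 3.71 FPKM in control libraries (log2 fold change 2.33, SE 0.71, adjusted p = 0.0251, limma). It was called in 1 of 5 fits without 1 library, at 1.22 to 3.45, and neither with quantile normalization (0.33) nor by limma-voom. Rbm34, the gene with the highest mean over the 5 libraries, was at 8.22, 3.54 and 8.198 FPKM in *Pfn1*-KO libraries and at 3.62 and 15.4 FPKM in control libraries, with overlap between groups, and was called lower with quantile normalization (-2.11). Rbm19, which acts in processing of pre-rRNA, was at 3.21, 2.09 and 3.999 FPKM in *Pfn1*-KO libraries and at 1.84 and 2.43 FPKM in control libraries, and these ranges overlapped too. Of the 8 genes with other or little known roles, 7 were tested and 6 rose, against 70.1% of all genes tested. Of these 6, 3 (Rbm12, Rbm12b2 and Rbm45) were listed at 0 in both controls and could be called in 1 direction alone. Rbm45, which encodes an RNA-binding protein of the developing nervous system, was at 13.1, 12.9 and 12.02 FPKM in *Pfn1*-KO libraries and listed at 0 in both control libraries.

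Genes listed at 0 in both control libraries were RBM genes alone: 11 of 38 RBM genes, of which 7 passed the filter through their *Pfn1*-KO values alone and so had to be higher, and 0 of 20 hnRNP genes, against 42.6% of protein-coding genes with values. The other most abundant genes among them were Rbm15, which encodes an adaptor of the RNA methyltransferase complex, at 15.9, 5.63 and 16.8 FPKM in *Pfn1*-KO libraries, and Rbm12b2 at 7.94, 2.65 and 8.01 FPKM. The ribosomal protein gene Rps29 and the proteasome gene Psmb5 were also listed at 0 in both controls, so no fold is given for Rbm45, Rbm15 and Rbm12b2. Of genes with a mean under 1 FPKM in *Pfn1*-KO libraries, 4 of 4 RBM genes were listed at 0 in both controls, against 78.7% of protein-coding genes, and at 1 to 4 FPKM 4 of 9, against 51.9%. Of genes with a mean of 4 to 10 FPKM in *Pfn1*-KO libraries, 1 of 11 RBM genes and 0 of 2 hnRNP genes were listed at 0 in both controls, against 32.4% of protein-coding genes. At 10 to 20 FPKM it was 2 of 12 RBM genes and 0 of 6 hnRNP genes, against 18.2%. At 20 FPKM and above, where 12 of the 20 hnRNP genes but 2 RBM genes lay, it was 0 of both, against 7.92%. Rbm12b2 shares 61.5% of its 50-base stretches with other genes, chiefly Rbm12b1, so its reads are uncertain.

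**Figure D2:**
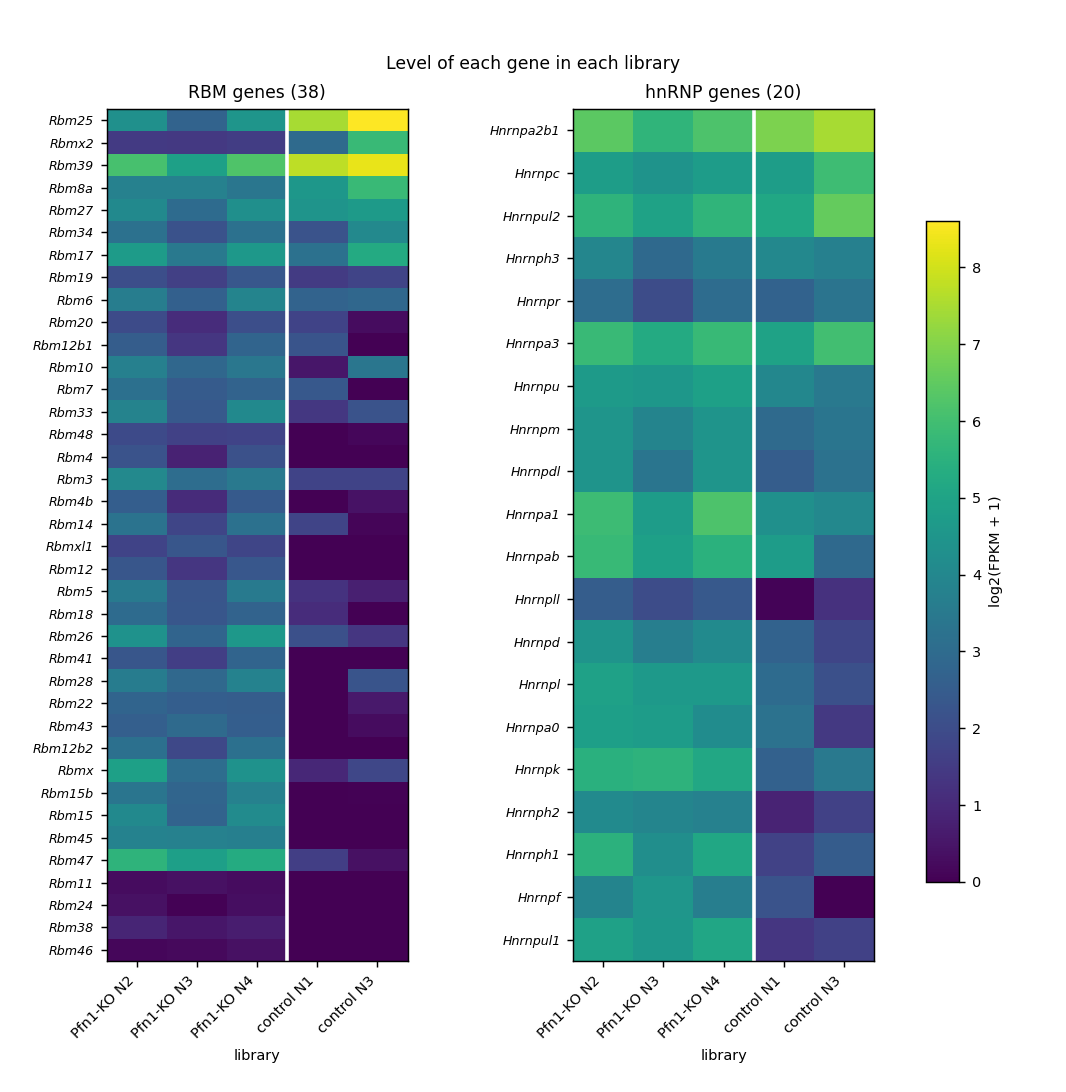
Level of the 38 RBM (left) and 20 hnRNP (right) genes as log2(FPKM + 1) in the 3 *Pfn1*-KO libraries, left of the white line, and the 2 control libraries; genes run from the lowest log2 fold change at the top to the highest, with the 4 untested RBM genes last. Rbm25 and Rbm39 stay at or under 21.5 and 73.9 FPKM in *Pfn1*-KO libraries, against 388 and 315 FPKM in control N3, and 0 RBM genes are listed at 0 in each *Pfn1*-KO library, against 16 and 14 in control N1 and N3.

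Among the hnRNP A/B and D genes, whose products bind exonic silencers and AU-rich mRNA ends, 2 of 7 rose. Hnrnpa2b1, for the protein that sorts microRNAs and binds methylated RNA as well as splice sites, was the most abundant hnRNP gene on average. It was at 86.1, 48.9 and 72.3 FPKM in *Pfn1*-KO libraries and at 119 and 177 FPKM in control libraries (log2 fold change -1.10, SE 0.60, adjusted p = 0.132, limma). All 3 *Pfn1*-KO values lay below both controls, but the difference did not pass the test. It was called lower by limma-voom (-2.07) and with median-ratio (-2.91) and nuclear protein-coding scaling (-2.17).

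Hnrnpa1, for the best known splicing silencer of the family, was at 59.2, 26.0 and 72.9 FPKM in *Pfn1*-KO libraries and at 18.8 and 15.3 FPKM in control libraries (log2 fold change 1.46, SE 0.62, adjusted p = 0.0706, limma), and its log2 fold change was -0.32 under median-ratio scaling, while it was called higher without *Pfn1*-KO N3 (1.89) and when array weights were used. Hnrnpa3 was at 56.4, 37.2 and 54.4 FPKM in *Pfn1*-KO libraries and at 30.2 and 63.3 FPKM in control libraries (log2 fold change 0.14, SE 0.59, adjusted p = 0.830, limma), with the controls on both sides. Hnrnpa0, which binds AU-rich mRNA ends, was at 27.7, 26.3 and 17.1 FPKM in *Pfn1*-KO libraries, against 8.36 and 1.67 FPKM in control libraries (log2 fold change 2.28, SE 0.65, adjusted p = 0.0198, limma). Hnrnpa0 is thus a gene of this subfamily that rose without overlap, though the 2 controls lay apart and the log2 fold change was 1.37 and not called without control N3. The call was also lost without *Pfn1*-KO N2 or N3 and with median-ratio (0.69), quantile (0.42) and nuclear protein-coding scaling (1.34) and limma-voom. Processed copies make the first pair uncertain, since 46.4% of the 50-base stretches of Hnrnpa1 and 91.0% of those of Hnrnpa3 recur in other genes.

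The hnRNP C and R genes were 2 and passed in neither direction, with a median log2 fold change of -0.50. Hnrnpc, for the protein that binds uridine tracts and measures the length of new transcripts, was at 26.6, 20.6 and 26.0 FPKM in *Pfn1*-KO libraries and at 27.0 and 60.1 FPKM in control libraries (log2 fold change -0.71, SE 0.57, adjusted p = 0.280, limma). Control N1 lay just above the *Pfn1*-KO values. Hnrnpc was called lower with median-ratio (-2.49) and nuclear protein-coding scaling (-1.76). Under quantile normalization it was called lower (-1.83), as were Hnrnpr (-2.27) and Hnrnph3 (-2.04), the 3 hnRNP genes with such a call.

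Of the 4 F/H genes, whose products bind runs of G, 3 rose. Hnrnph1 was at 45.6, 17.9 and 34.1 FPKM in *Pfn1*-KO libraries, against 2.24 and 4.70 FPKM in control libraries (log2 fold change 2.87, SE 0.58, adjusted p = 0.00595, limma). Hnrnph2, its X-linked relative, was at 16.5, 14.2 and 12.9 FPKM in *Pfn1*-KO libraries, against 0.801 and 2.20 FPKM in control libraries (log2 fold change 2.69, SE 0.44, adjusted p = 0.00294, limma). Both genes were called higher whichever 1 library was left out, but not with median-ratio (1.25 and 1.28) or quantile scaling (1.19 and 0.54) or by limma-voom. Their relative Hnrnph3 was at 14.6, 6.66 and 10.6 FPKM in *Pfn1*-KO libraries and at 15.1 and 12.3 FPKM in control libraries, with overlap.

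Of the K, L and M genes, 3 of 4 rose. Hnrnpk, for a KH-domain protein that binds runs of C, was at 43.0, 46.0 and 34.7 FPKM in *Pfn1*-KO libraries, against 5.32 and 10.1 FPKM in control libraries (log2 fold change 2.33, SE 0.51, adjusted p = 0.00790, limma). Hnrnpl, whose product binds CA repeats, was at 29.1, 23.98 and 23.9 FPKM in *Pfn1*-KO libraries, against 6.95 and 3.30 FPKM in control libraries (log2 fold change 2.18, SE 0.49, adjusted p = 0.00852, limma). Both genes lay above both controls in all 3 *Pfn1*-KO libraries, but their calls were lost with median-ratio (0.61 and 0.53), quantile (0.89 and 0.41) and nuclear protein-coding scaling (1.33 and 1.21) and by limma-voom. Part of the Hnrnpk reads may belong to processed copies, as 34.5% of its 50-base stretches recur elsewhere, and so do 30.1% of those of Hnrnph2.

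Of the 3 U genes, for large chromatin-associated hnRNP proteins, 1 rose. Hnrnpul1 showed the largest rise of the family, with 29.0, 22.4 and 33.4 FPKM in *Pfn1*-KO libraries, against 1.58 and 2.13 FPKM in control libraries (log2 fold change 3.35, SE 0.44, adjusted p = 0.00171, limma). Hnrnpul2, whose product acts beside that of Hnrnpul1 at DNA breaks, was at 47.4, 29.8 and 48.7 FPKM in *Pfn1*-KO libraries and at 34.1 and 94.9 FPKM in control libraries (log2 fold change -0.47, SE 0.66, adjusted p = 0.531, limma). So one gene of the pair lay above both controls in all 3 *Pfn1*-KO libraries, while the other overlapped them, with N3 below both controls. Hnrnpul2 was called lower with median-ratio scaling (-2.27), and Hnrnpul1 lost its call under quantile normalization (1.48). Of the 9 hnRNP genes that rose, 5 were called whichever 1 library was left out, and the count was 5 without *Pfn1*-KO N2. Of the 21 RBM genes that rose, 13 were called in all 5 such fits, and the count was 13 without *Pfn1*-KO N2. With quantile normalization Rbm47, Rbm45 and Rbm15 were the 3 members called higher.

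Summed over the family, hnRNP genes came to 649, 434 and 595 FPKM in *Pfn1*-KO libraries and 336 and 494 FPKM in control libraries, and RBM genes to 435, 212 and 426 FPKM in *Pfn1*-KO libraries and 483 and 926 FPKM in control libraries. The RBM sum was 0.670, 0.488 and 0.716 times the hnRNP sum in *Pfn1*-KO libraries, against 1.44 and 1.87 times in control libraries. This ratio is taken within a library and does not depend on scaling between libraries. The groups did not overlap, and 0.1 is the smallest two-sided p that an exact permutation test of 3 against 2 libraries allows. Rbm25 and Rbm39 made up 19.7%, 16.3% and 22.4% of the RBM sum in *Pfn1*-KO libraries, against 80.2% and 75.9% in control libraries. Without these 2 genes, chosen after their values were seen, the ratio was 0.538, 0.409 and 0.556 in *Pfn1*-KO libraries and 0.284 and 0.452 in control libraries, so that the controls lay no longer above and overlapped the *Pfn1*-KO range.

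Ratios between genes of a family were also taken within each library, for 12 pairs. The pairs, and which gene was divided by which, were chosen after the values were seen, so the ratios are a description of these pairs and no count over them is given. Hnrnpul2 was 1.63, 1.33 and 1.46 times Hnrnpul1 in *Pfn1*-KO libraries, against 21.5 and 44.5 times in control libraries. Rbm27 was 0.810, 1.22 and 0.799 times Rbm26 in *Pfn1*-KO libraries, against 6.28 and 15.7 times in control libraries. Hnrnph3 was 0.320, 0.372 and 0.311 times Hnrnph1 in *Pfn1*-KO libraries, against 6.74 and 2.62 times in control libraries. In these 3 pairs the *Pfn1*-KO libraries lay close together and the controls farther apart. Hnrnpa2b1 was 1.46, 1.88 and 0.991 times Hnrnpa1 in *Pfn1*-KO libraries, against 6.31 and 11.5 times in control libraries. Rbm6 was 1.07, 1.38 and 1.29 times Rbm5 in *Pfn1*-KO libraries, against 4.06 and 9.19 times in control libraries. Hnrnpc was 0.620, 0.447 and 0.748 times Hnrnpk in *Pfn1*-KO libraries, against 5.07 and 5.98 times in control libraries. The proteins of this last pair are not close relatives, nor are those of Hnrnpr and Hnrnpl, also among the 12. Rbm10 over Rbm5 and Hnrnpdl over Hnrnpd overlapped between groups.

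**Figure D3:**
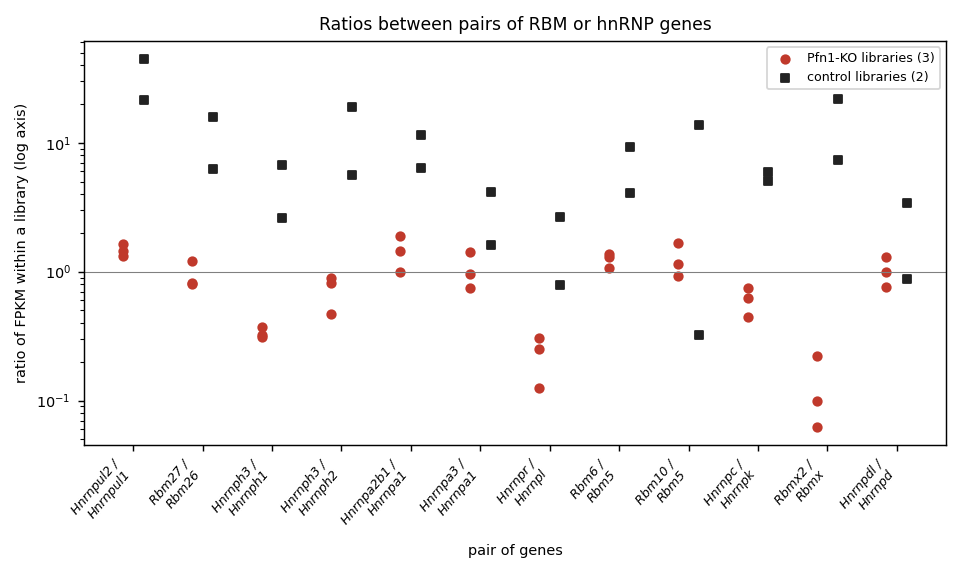
FPKM of the first gene divided by that of the second within each library, for 12 pairs within a family on a log axis; red circles are the 3 *Pfn1*-KO libraries and black squares the 2 control libraries. Pairs and their orientation were chosen after the values were seen; red lies below black for Hnrnpul2 over Hnrnpul1, at 1.33 to 1.63 against 21.5 and 44.5, and overlaps it for Rbm10 over Rbm5 and Hnrnpdl over Hnrnpd.

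What the genes share beyond their names was looked for in their coding sequence. The richest 50-base stretch held a median of 79% purines in tested RBM genes, 78% in tested hnRNP genes and 74% in tested protein-coding genes with a coding sequence. Of the 8 tested members with 88% or more, 3 fell (Rbm25, Rbmx2 and Rbm39), none rose and 5 passed in neither direction, with a median log2 fold change of -0.36. Of 705 protein-coding genes tested in that range 22.4% were called lower and 24.5% higher, with a median of -0.04. Of the 16 members with 80% to 88%, 7 rose and 1 fell (Rbm8a), with a median of 1.15, and of protein-coding genes there 65.8% were called higher and 2.37% lower, with a median of 1.76. Of the 23 members with 74% to 80%, 16 rose, with a median of 2.18, against 80.01% of protein-coding genes, with a median of 2.13. The 7 members below 74% were called higher, with a median of 1.82, against 78.3% of protein-coding genes, with a median of 2.01. The 7 members listed at 0 in both controls, which could be called in 1 direction alone, are 5 of these 23 and 2 of these 7.

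By rank, a higher purine share went with a lower log2 fold change, though the medians did not fall steadily from range to range. Spearman's rho was -0.58 over 54 tested members, -0.64 over 20 hnRNP genes, -0.55 over 34 RBM genes and -0.16 over 11843 protein-coding genes. Without genes listed at 0 in both controls it was -0.57 over 47 members and -0.20 over 8034 protein-coding genes. These points share the same 5 libraries, and the values are a description. Within libraries, rho between the purine share and the FPKM of the 54 members was 0.02, 0.01 and 0.11 in *Pfn1*-KO libraries, against 0.33 and 0.61 in control libraries. Over protein-coding genes it was 0.09, 0.11 and 0.18 in *Pfn1*-KO libraries, against 0.24 and 0.32 in control libraries. The families differed in sign in the *Pfn1*-KO libraries, with 0.17 to 0.23 for RBM and -0.32 to -0.08 for hnRNP genes, and rho was highest in control N3 for both. With the share of A alone, rho with the log2 fold change was -0.56 for RBM genes and -0.13 for hnRNP genes, against -0.04 over protein-coding genes. Rbm10 and Rbm19, picked after their values were seen, show members with 96% purines that passed in neither direction. Rbm19 was called lower with quantile normalization (-1.68, adjusted p = 0.0258) and was -0.49 with limma-voom, and Rbm10 was -0.68 with quantile normalization and between -0.029 and 2.82 without 1 library. Rbm10 was at 12.4, 6.32 and 9.71 FPKM in *Pfn1*-KO libraries and at 0.443 and 9.37 FPKM in control libraries. Of the 50-base stretches of Rbm10, 44.0% recur in other genes.

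**Figure D4:**
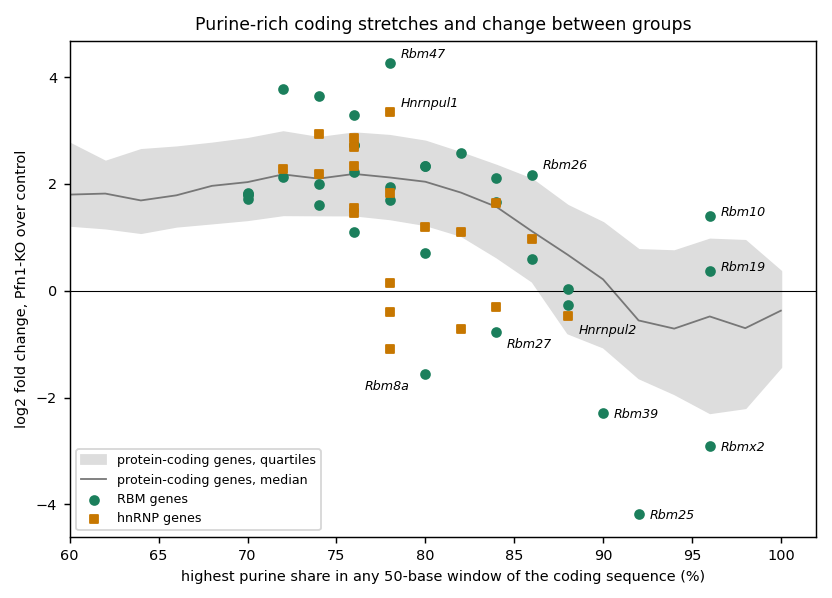
Log2 fold change (*Pfn1*-KO over control, log2(FPKM + 1) scale) of each tested RBM gene (circles) and hnRNP gene (squares) against the highest share of purines in any 50 bases of its coding sequence; the grey line and band are the median and quartiles of protein-coding genes. Rbm25, Rbmx2 and Rbm39 lie at 90% purines or more and below 0, while Rbm10 and Rbm19 lie at 96% and above 0.

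Other RNA-binding splicing regulators, a list of 56 genes outside both families (54 with values, 53 tested), gave 28 that rose, 4 that fell and 21 that passed in neither direction, with a median log2 fold change of 1.39. Over all genes tested 70.1% were called higher and 2.13% lower, with a median of 1.75, so the share that rose was below the background. The list was chosen with earlier results of these data known and is no independent check of the families. Luc7l3, whose product associates with U1 snRNP, was at 27.2, 10.2 and 30.2 FPKM in *Pfn1*-KO libraries, against 288 and 259 FPKM in control libraries (log2 fold change -3.68, SE 0.66, adjusted p = 0.00398, limma). Zcrb1, for a protein of the minor spliceosome, was at 16.8, 6.83 and 14.6 FPKM in *Pfn1*-KO libraries, against 215 and 105 FPKM in control libraries (log2 fold change -3.54). The other 2 that fell were Pnn (-2.48) and Acin1 (-1.93), whose products sit at the edge of the exon junction complex. The call of Acin1 was lost without control N3, *Pfn1*-KO N2 or N4 and with a sum of 1000000 (-1.23), and that of Pnn without *Pfn1*-KO N2 and with a sum of 1000000 (-1.79). The richest purine stretches of these 4 held 96%, 86%, 92% and 92% purines. Of the 10 genes of this list with 88% or more, 3 fell, 1 rose (Safb, 94%) and 6 passed in neither direction, among them Son at 94%, and of the 43 others 27 rose and 1 fell. Of protein-coding genes tested, 5.95% lay at 88% or more, and of these 22.4% were called lower and 24.5% higher. In the 3 ranges below 88%, 65.8% to 80.01% were called higher. The largest log2 fold changes among genes that rose were those of Pcbp2 (3.79, SE 1.03, adjusted p = 0.0164, limma), for a protein that binds runs of C, the paraspeckle gene Nono (3.34), the muscleblind gene Mbnl2 (3.09) and the musashi gene Msi2 (3.00), at 76%, 78%, 70% and 72% purines. Pcbp2 was at 87.9, 23.7 and 49.0 FPKM in *Pfn1*-KO libraries, against 9.35 and 0.152 FPKM in control libraries, and its call was lost when *Pfn1*-KO N2, N3 or N4 was left out and with limma-voom, median-ratio, quantile and nuclear protein-coding scaling. Its value was 5.38 without control N1 and 2.21 without control N3. The calls of Nono, Mbnl2 and Msi2 were lost with quantile normalization (1.53, 1.03 and 1.16), those of Nono and Mbnl2 by limma-voom, and that of Nono with median-ratio (1.99) and nuclear protein-coding scaling (2.51).

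*Pfn1*-KO N3 was the lowest of its group for 46 of the 58 members (79.3%), 15 hnRNP and 31 RBM, against 71.8% of protein-coding genes. Without it, 10 hnRNP and 21 RBM genes were called higher and 2 RBM genes lower.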

How the data were processed

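RNA from TRAP pulldowns of kidney cortex was sequenced in 3 *Pfn1*-KO and 2 control libraries; GEO's labels describe isolated podocytes. Per the methods and submitters' processing notes, fastp 0.20 was used for trimming, STAR 2.7.9 for alignment (GRCm38.p6), featureCounts 2.0.0 for counting and DESeq2 1.30.1 for the authors' comparison; the use of strand is not given in the sources used here. Deposited values are FPKM that the authors computed. The methods name TPM, but column sums differ between libraries.

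Of 23010 rows, 21019 had values, and 20985 matched GENCODE vM21 by gene ID. FPKM times gene length and library size gave whole reads within 0.02 for 20414 genes. One read is the smallest step, and depth limits low genes. Groups were compared with limma 3.58.1 (R 4.3.3) on log2(FPKM + 1), with a mean-variance trend and two-sided Benjamini-Hochberg adjusted p under 0.05. The fit covered the 14631 genes at 1 FPKM or more in at least 2 of 5 libraries. It was also run on simulated data drawn around the mean of the *Pfn1*-KO libraries, with few genes changed. That setting holds no shift of most genes, as seen between these groups, and is no support for the calls. A fold change on this scale understates that of low genes. No paired fit was made. p-values measure the spread between pools of 3 mice. Fold changes are given for every member that fell, up to 6 per family that rose most among those above 0 in all libraries, the 5 most abundant of each family and up to 4 each way of the other list; FPKM is given for up to 3 per family listed at 0 in both controls and the most abundant of each role group. Members and lists were chosen with earlier results of these data known. Alternatives were other filters, pseudocounts of 0.1 and 5, array weights, 4 scalings, limma-voom on recovered reads and leaving out each library. Tables and figures used Python 3.11.15, numpy 2.4.6, pandas 2.3.3, scipy 1.17.1 and matplotlib 3.10.9. Coding sequences were read from GRCm38. Protein sequences were not used here.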

Additional observations from a re-analysis of the deposited data

How the results depend on the processing

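No paired analysis was possible because the columns share 1 number (N3) between groups and none marks a shared animal or batch. Both control columns carry a longer form of name, with added number codes, than the *Pfn1*-KO columns. The meaning of these codes is not given, and the difference in form coincides with genotype. Over all genes, the number called higher was 2440 among genes above 0 in every sample, 1023 with quantile normalization and 6023 with limma-voom, and 6746 to 10623 without 1 library. The number lower was 905 with median-ratio scaling, 1806 with quantile normalization, 98 with a sum of 1000000, 620 with nuclear protein-coding scaling and 174 to 455 without 1 library. hnRNP genes higher were 14 with array weights, 1 with median-ratio scaling, 0 with quantile normalization (3 lower), 3 with nuclear protein-coding scaling, 1 with limma-voom and 5 to 10 without 1 library; hnRNP genes lower were 5, 3, 3 and 2 with median-ratio, quantile, nuclear protein-coding scaling and limma-voom. RBM genes higher were 8 among genes above 0 in every sample, 12 with median-ratio scaling, 3 with quantile normalization, 9 with limma-voom and 13 to 21 without 1 library; RBM genes lower were 7 with quantile normalization, 2 with a sum of 1000000 and 1 to 4 without 1 library. Other splicing regulators higher were 17 among genes above 0 in every sample, 10 with median-ratio scaling, 0 with quantile normalization, 13 with nuclear protein-coding scaling, 8 with limma-voom and 15 to 31 without 1 library; lower were 12, 10, 2, 8 and 8 with median-ratio, quantile, a sum of 1000000, nuclear protein-coding scaling and limma-voom, and 2 to 5 without 1 library. The log2 fold change of these genes chosen by the naming rule turned sign. Hnrnpul2 was 0.27 with a sum of 1000000 and between -1.19 and 0.26 without 1 library, positive without control N3. Hnrnpa3 was -1.66 with median-ratio scaling, -0.68 with quantile normalization, -0.92 with nuclear protein-coding scaling, -0.81 with limma-voom and between -0.38 and 0.66 without 1 library, negative without control N1. Hnrnpa1 was -0.32 with median-ratio scaling and Hnrnpc 0.012 with a sum of 1000000. Rbm5, Rbm14 and Rbm4b were -0.17, -0.40 and -0.59 with quantile normalization. Rbm17 was -0.0048 with a pseudocount of 5, -1.70, -1.35, -0.98 and -0.85 with median-ratio, quantile, nuclear protein-coding scaling and limma-voom, and between -0.99 and 1.06 without 1 library, negative without control N1, *Pfn1*-KO N2 or N4. Of the other members, for which quantile normalization, limma-voom and fits without 1 library were tabulated, quantile normalization turned Rbm33 (-0.42), Rbm48 (-0.30), Rbm3 (-0.29), Rbm18 (-0.028), Hnrnpll (-0.86) and Hnrnpd (-0.10), called higher on the deposited scale, and Rbm19 (-1.68), Rbm6 (-1.34), Rbm20 (-1.27), Rbm12b1 (-0.77), Rbm10 (-0.68), Hnrnpm (-0.57), Hnrnpdl (-0.55), Hnrnpu (-0.50) and Rbm7 (-0.43), called in neither direction. Limma-voom turned Rbm19 (-0.49) and Rbm6 (-0.34). Without 1 library Rbm34 was between -1.17 and 0.65, Rbm10 between -0.029 and 2.82, Rbm20 between -0.019 and 1.43, Rbm12b1 between -0.019 and 2.22 and Hnrnpr between -0.59 and 0.057. *Pfn1* was -0.36 with quantile normalization and -0.70 with median-ratio scaling, and was called higher with array weights (1.52) and without *Pfn1*-KO N3 (1.36). The cause of these changes was not tested. Of the 4 RBM genes that fell, all kept their sign in all alternatives run.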
